A study of Mus musculus with 40 samples.

Results

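The question was whether the Fc part of an anti-GARP:TGF-β1 antibody left a mark on the tumor transcriptome when the antibody was given together with anti-PD-1. The 10 tumors compared carried the tags anti-GARP:TGFb FcD + anti-PD1 FcS (5 mice) and anti-GARP:TGFb WT + anti-PD1 FcS (5 mice), and they were taken by these tags from the 40 tumors of the series. BALB/c mice had received 1000000 CT26 cells, a colon carcinoma line of the same strain, under the skin. Monoclonal antibodies were injected into the peritoneum on days 6, 9 and 12. Tumors were collected on day 13, and tumor fragments were used for bulk RNA sequencing. The 8 groups of the series held 5 mice each, from an mIgG2a isotype control to anti-PD-1, anti-TGF-β and anti-GARP:TGF-β1 alone or combined.

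Both groups received clone 58A2, a mouse IgG2a that binds the GARP:TGF-β1 complex, and both received the same Fc-silent anti-PD-1. They differed only in the Fc. WT denotes the antibody with its active IgG2a Fc, and FcD (Fc-dead) the same antibody with an Fc altered so as not to bind Fcγ receptors. The labels give 1 tumor per mouse and no further detail on cages or days of dissection, so p-values measure the spread between these mice.

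GARP, encoded by Lrrc32, is a transmembrane protein that holds latent TGF-β1 on the surface of activated regulatory T cells (Tregs), and also of platelets and endothelial cells. The integrin αVβ8 then releases the active cytokine, which signals through Smad proteins and restrains T cells nearby. An antibody with an active Fc can, besides blocking its target, engage Fcγ receptors on macrophages, neutrophils and NK cells and lead to killing or engulfment of the cell it coats, which an Fc-dead format is built not to do. Genes of Fcγ receptors, effector cells and Tregs were therefore the first to be compared, followed by T cells, TGF-β and interferon genes and then by all genes.

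Total counts ranged from 11931730 to 20680548 over the 40 libraries, from 12359062 to 14562396 in the FcD + anti-PD-1 tumors and from 13686645 to 19691830 in the WT + anti-PD-1 tumors. The means of these last 2 groups were 13770472 and 15912501 (2-sided exact permutation test, p = 0.0952). No pair of libraries in a group agreed within counting noise, so none was a library deposited repeatedly, with a chi-square per degree of freedom of at least 5.07 over 20 pairs. Of 54087 genes in the table, 14760 were expressed highly enough to be tested.

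Some of the 10 libraries stood apart before any comparison. WT replicate 5 was the farthest from the other 9 tumors (median log2 distance 0.884, against 0.495 to 0.695 for each other tumor), and it was the highest of the 10 tumors for 4270 genes (28.9%). FcD replicate 4 carried transcripts of epithelium and fat: Krt8, a keratin of simple epithelia, stood at 172 CPM (counts per 1000000 of the library, scaled by trimmed mean of M-values) there and at 0 to 60.4 CPM in the other 9 tumors. FcD replicate 2 was the highest for 3179 genes (21.5%), with a median distance of 0.691, and without it 335 genes had an unadjusted p under 0.05 (192 with all mice) and 39 of 48 gene list medians kept their sign. WT replicate 4 held the small nuclear RNA gene Rn7sk at 1030 CPM, against 3.77 to 67.8 CPM elsewhere. In addition, libraries numbered 41 to 60 carried Y-linked transcripts (Ddx3y 6.86 to 33.4 CPM), whereas in libraries 61 to 80 Ddx3y was at 0 and Xist at 62.7 to 791 CPM. The labels used here say nothing of this division. FcD + anti-PD-1 had 3 mice in the first part and 2 in the second, and WT + anti-PD-1 had 2 and 3, so values are also given within each part and without single libraries.

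With anti-PD-1 given to both groups, no single gene differed between the Fc formats after correction for multiple testing. None of the 14760 genes passed an adjusted p of 0.05 (edgeR quasi-likelihood test with Benjamini-Hochberg adjustment, smallest adjusted p = 0.999937). At an unadjusted p under 0.05 there were 192 genes (1.30% of those tested), of which 120 were higher (0.813%) and 72 lower (0.488%) with FcD. DESeq2, run without the filter on low counts, gave 0 genes after adjustment and 337 before it, of which 196 were among the 14760. Only 18 genes (0.122%) had 5 FcD values that did not overlap the 5 WT values, 9 in each direction (0.0610% each).

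The data bounded the size of most differences. For 12203 genes (82.7%) the 95% interval of the FcD minus WT difference lay within a 2-fold difference either way, and among the 9721 genes with at least 10 CPM this held for 9421 (96.9%). The median half-width of these intervals was 0.32 on the log2 scale. The median difference over all genes was -0.02 log2, with quartiles at -0.08 and 0.06. A total of 262 genes had a point estimate beyond a 2-fold difference. For genes outside these bounds a difference above 2-fold was compatible with the 10 mice, and a p above the threshold does not show that both formats act alike.

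**Figure D1:**
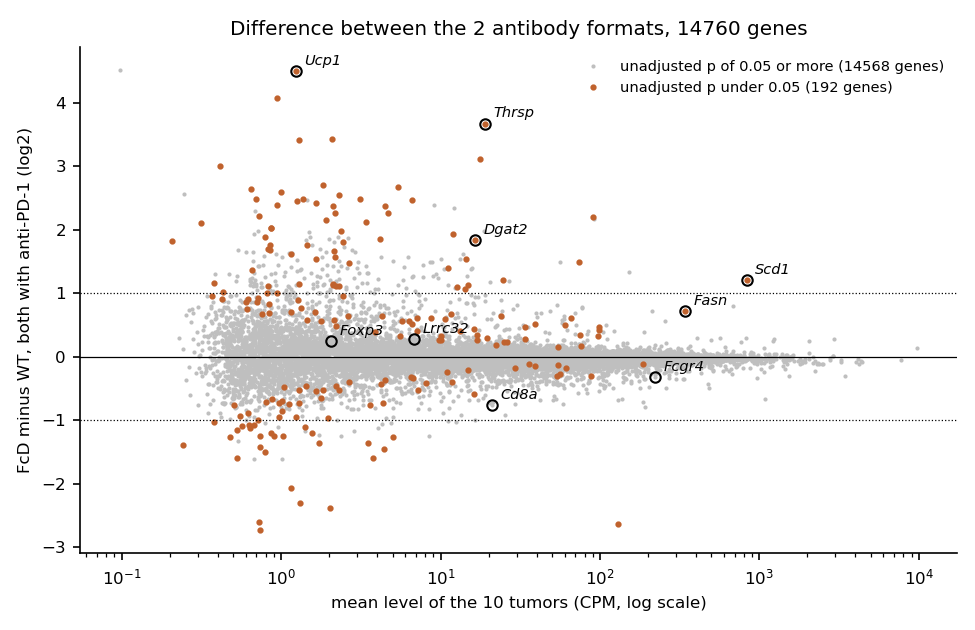
Each point is 1 of 14760 genes, with its mean level in the 10 tumors (CPM, log scale) on the horizontal axis and its FcD minus WT difference, both with anti-PD-1 (log2), on the vertical axis. Orange points are the 192 genes with an unadjusted p under 0.05, and dotted lines mark a 2-fold difference. The labeled genes, all described in the text, are circled. The cloud is narrow at high levels and wide at low ones, and lipid genes such as Thrsp and Scd1 lie above it.

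Fcγ receptors are where an active Fc acts, and their transcripts mark macrophages, monocytes and neutrophils. Fcgr4, an activating receptor that binds mouse IgG2a, stood at 207, 108, 239.9, 211 and 215 CPM in FcD replicates 1 to 5. In WT replicates 1 to 5 it stood at 146, 108, 230.3, 139.6 and 603 CPM, and in the 5 isotype control tumors between 78.7 and 122 CPM. The other 9 tumors shared a range and WT replicate 5 lay far above it. The FcD minus WT difference was -0.32 log2 (SE 0.48, 95% interval -1.30 to 0.66, unadjusted p = 0.507). Without WT replicate 5 it was 0.33 log2 (unadjusted p = 0.48).

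The other Fcγ receptors followed the same course. The inhibitory receptor Fcgr2b lay at 339, 243, 253, 221 and 257 CPM with FcD and at 212, 212, 243, 176 and 546 CPM with WT. Its difference was -0.08 log2 (SE 0.22) with all mice and 0.32 log2 without WT replicate 5. Fcgr1, Fcgr3 and their common signaling chain Fcer1g differed by -0.22, -0.14 and -0.24 log2. In the list of IgG Fc receptors and their signaling molecules, 0 of 12 genes had an unadjusted p under 0.05, all 12 were lower with FcD in point estimate, and the median was -0.21 log2. Without WT replicate 5 the same list had 11 of 12 genes higher and a median of 0.36. Within libraries 41 to 60 the median was 0.52 and within libraries 61 to 80 it was -0.43.

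Macrophages, which carry these receptors, were traced by C1qa, a subunit of complement C1q, and by Adgre1, which encodes F4/80. C1qa lay at 743, 638, 694, 643 and 703 CPM with FcD and at 494, 492, 699, 403 and 1693 CPM with WT. The FcD tumors were close to each other, WT replicates 1, 2 and 4 lay below all of them and WT replicate 5 lay far above. The difference was -0.14 log2 (SE 0.28, 95% interval -0.71 to 0.43), and 0.39 log2 without WT replicate 5 (unadjusted p = 0.101). Adgre1 differed by -0.49 log2 (SE 0.50). Over 17 macrophage genes the median was -0.13 with all mice and 0.44 without WT replicate 5. In bulk RNA, fewer cells of a type and less RNA per cell cannot be told apart.

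NK cells carry out antibody-dependent cytotoxicity, and their genes overlapped between the groups. Ncr1, the NK receptor NKp46, lay at 7.71 to 11.0 CPM with FcD and at 6.58 to 11.3 CPM with WT. Its difference was 0.18 log2 (SE 0.26, 95% interval -0.34 to 0.69). Of 12 NK genes tested, 2 were higher, Ncr1 and Xcl1, and 10 lower in point estimate, with a median of -0.19 log2. The median was 0.26 with 11 of 12 higher without WT replicate 5, 0.54 within libraries 41 to 60 and -0.68 within libraries 61 to 80. The chemokine gene Xcl1 alone had an unadjusted p under 0.05, where 1.30% of all genes did. Xcl1 stood at 1.44, 1.96, 2.40, 0.674 and 1.99 CPM with FcD and at 1.02, 0.770, 1.52, 0.511 and 1.12 CPM with WT. It differed by 0.77 log2 (SE 0.34, unadjusted p = 0.0293), with overlapping groups.

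Tregs are the cells the antibody coats. Foxp3, their defining transcription factor, lay at 1.87, 1.13, 3.61, 2.43 and 2.06 CPM with FcD and at 1.68, 0.719, 2.21, 2.56 and 2.24 CPM with WT, while isotype control tumors lay between 0.393 and 1.17 CPM. Both groups spanned about the same range, and 4 of 5 tumors in each lay above all isotype controls. The difference was 0.24 log2 (SE 0.45, 95% interval -0.68 to 1.16, unadjusted p = 0.596), so a loss or gain of less than a 2-fold change was not detectable with these mice. Il2ra, the interleukin-2 receptor alpha chain, differed by -0.18 log2 (SE 0.39), Ctla4 by -0.50 log2 (SE 0.65) and Ccr8, a chemokine receptor of tumor Tregs, by 0.38 log2 (SE 0.71). Without WT replicate 5 Il2ra differed by 0.03 log2 and Ctla4 by 0.00 log2.

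As a list, 15 Treg genes had a median of -0.16 log2, with 4 genes higher, 11 lower and 0 at an unadjusted p under 0.05. The median was 0.24 without WT replicate 5, 0.47 within libraries 41 to 60 and -0.46 within libraries 61 to 80. Its sign thus turned with 1 library and with the part of the series.

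The gene of the target, Lrrc32, stood at 12.5, 2.64, 6.17, 10.4 and 5.84 CPM with FcD and at 3.43, 2.36, 6.51, 4.82 and 13.8 CPM with WT. FcD replicates 1 and 4 and WT replicate 5 were the high tumors, and the remaining 7 lay between 2.36 and 6.51 CPM. The difference was 0.28 log2 (SE 0.43, 95% interval -0.60 to 1.16). It was 0.81 log2 without WT replicate 5 (unadjusted p = 0.0672) and 0.13 log2 without FcD replicate 4. Within libraries 41 to 60 it was 1.30 log2 (unadjusted p = 0.049), and within libraries 61 to 80 it was -0.05 log2. Lrrc32 is also expressed by endothelium, and the 17 endothelial genes had a median of -0.04 with all mice and 0.41 without WT replicate 5. Their part in the Lrrc32 levels was not tested.

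Tgfb1, which encodes the ligand, differed by -0.12 log2 (SE 0.16, 95% interval -0.45 to 0.21), and Itgb8, the β8 chain of the activating integrin, by 0.10 log2 (SE 0.40). Without WT replicate 5 Tgfb1 differed by 0.18 log2, and by 0.37 and -0.34 log2 within libraries 41 to 60 and 61 to 80. Itgb8 differed by -0.37 log2 without FcD replicate 4, and by -0.53 and 0.69 log2 within these parts. The list of GARP and latent TGF-β activation held 15 tested genes with a median of 0.01, and 0 at an unadjusted p under 0.05. Its median was 0.16 with 11 of 15 higher without WT replicate 5, and 0.24 and -0.07 within the parts. Downstream of the ligand, Smad7, the inhibitory Smad that TGF-β itself induces, lay at 25.7 to 39.6 CPM with FcD and at 26.7 to 38.3 CPM with WT, a difference of -0.01 log2 (SE 0.13, 95% interval -0.28 to 0.27). All 15 TGF-β receptors, Smads and feedback genes had intervals within a 2-fold difference, with a median of -0.01. The study's lists of genes induced by TGF-β1 in 1 or more of the human cell types it exposed (113 genes tested) and in CD4+ T cells (40 genes tested) each had a median of -0.01.

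T cell transcripts were highest in 1 tumor. Cd8a, the CD8 alpha chain of cytotoxic T cells, lay at 29.5, 6.64, 16.6, 9.31 and 15.8 CPM with FcD and at 11.6, 8.17, 22.8, 10.2 and 79.7 CPM with WT. The WT value of 79.7 CPM came from replicate 5, and the remaining 9 tumors lay between 6.64 and 29.5 CPM. The difference was -0.77 log2 (SE 0.64, 95% interval -2.07 to 0.53, unadjusted p = 0.24) with all mice and 0.24 log2 without that tumor. Cd3e, a chain of the T cell receptor complex, went from -0.57 log2 to 0.50 log2 in the same way. So did Pdcd1, which encodes PD-1, from -0.80 log2 to 0.37 log2.

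In the list of T cell receptor and coreceptor genes, 2 of 18 genes were higher with FcD in point estimate (median -0.54), and without WT replicate 5 all 18 were (median 0.31). The summed level of the 18 genes was 566 CPM in WT replicate 5 and at most 248 CPM in any FcD tumor. Within libraries 41 to 60 the median was 0.84 and within libraries 61 to 80 it was -1.25, with no gene called in either. The 15 killing molecules moved from -0.36 to 0.12 and the 12 exhaustion receptors and factors from -0.32 to 0.22 when WT replicate 5 was left out.

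Ifng and Gzmb, products of activated T cells and NK cells, were also highest in that tumor. Ifng lay at 3.31, 2.56, 3.85, 3.51 and 3.58 CPM with FcD and at 2.99, 2.21, 2.85, 1.75 and 5.66 CPM with WT. All 10 values were above the isotype control range of 0.554 to 1.61 CPM. The difference was 0.12 log2 (SE 0.45, 95% interval -0.80 to 1.04), and 0.46 log2 without WT replicate 5. Gzmb, the granule protease granzyme B, lay at 213, 65.6, 113, 119 and 111 CPM with FcD and at 112, 86.6, 143, 151 and 290.3 CPM with WT, a difference of -0.33 log2 (SE 0.39, 95% interval -1.12 to 0.46). Prf1, encoding perforin, differed by -0.36 log2 (SE 0.38). Without WT replicate 5 the differences of Gzmb and Prf1 were 0.02 and 0.04 log2.

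**Figure D2:**
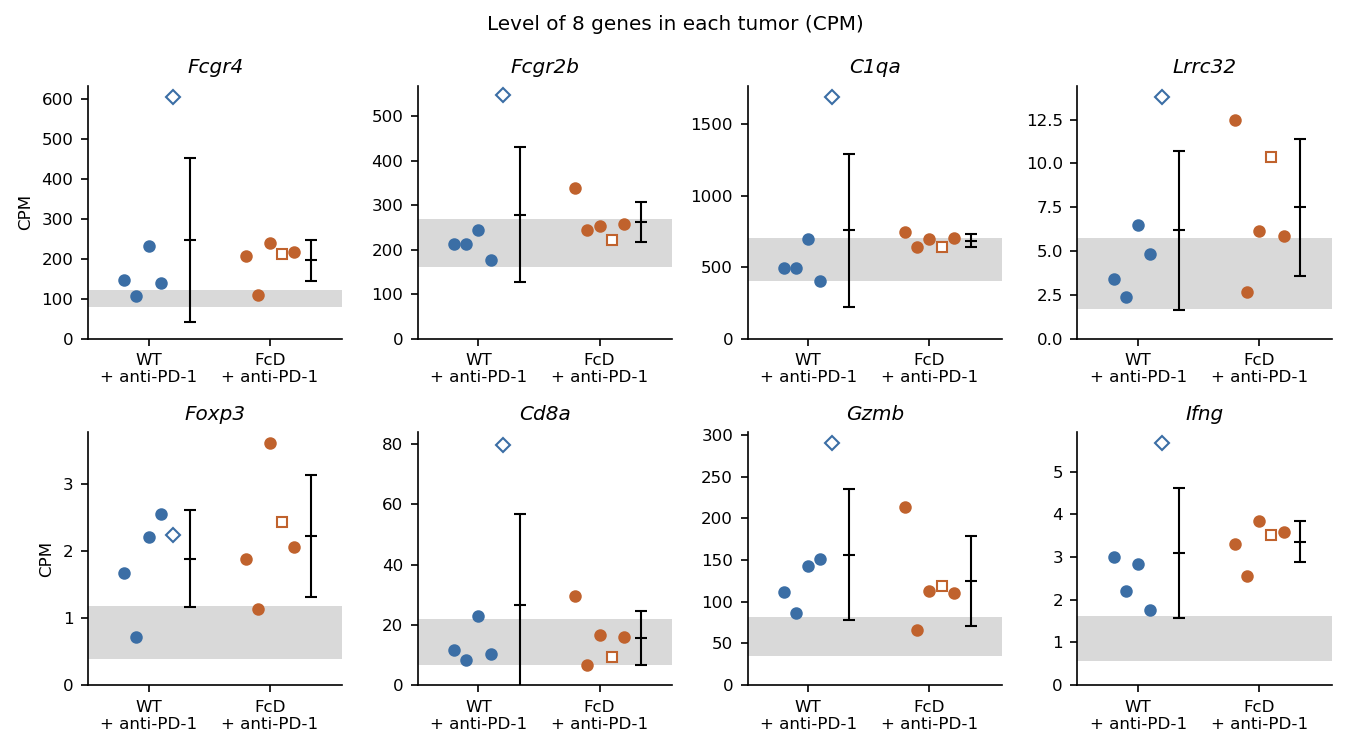
Level (CPM) of 8 immune genes in each tumor of the WT + anti-PD-1 (blue) and FcD + anti-PD-1 (orange) groups, with WT replicate 5 as an open diamond, FcD replicate 4 as an open square and the mean ± SD of 5 mice as a bar to the right, cut at 0. The grey band is the range of the 5 isotype control tumors. The diamond lies above all other tumors for each gene except Foxp3, and the remaining tumors of both groups overlap.

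Because T cell and myeloid transcripts varied between tumors, ratios within a tumor were also compared. Among 12 ratios, chosen after the single genes had been seen, the log2 ratio of Foxp3 to Cd3e was 0.43 higher with FcD (2-sided exact permutation test, p = 0.492, n = 5 per group). That of Cd8a to Foxp3 was -0.64 (exact permutation p = 0.349), that of Gzmb to Cd8a 0.07 (exact permutation p = 0.889) and that of Fcgr4 to the inhibitory Fcgr2b -0.10 (exact permutation p = 0.762). Without WT replicate 5 the differences were -0.03 for Foxp3 to Cd3e (exact permutation p = 0.976), -0.19 for Cd8a to Foxp3, -0.22 for Gzmb to Cd8a and 0.03 for Fcgr4 to Fcgr2b. The lowest p of the 12 with all mice was 0.270, for Cd8a to Cd4, and the adjusted p was 0.889 for all 12. Differences in these ratios were within the spread of the mice.

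The medians of interferon gene lists lay near 0. The 15 genes of the interferon-γ signaling core had a median of 0.02 log2 with 11 intervals within a 2-fold difference and members from -0.31 to 1.13 log2, and the median was 0.17 with 13 of 15 higher without WT replicate 5. The 17 guanylate-binding proteins and immunity-related GTPases had a median of 0.00 with 16 intervals within a 2-fold difference, and the 13 class I antigen presentation genes tested a median of -0.03 with 13 such intervals. Cxcl9, a chemokine induced by interferon-γ, lay at 229.5, 268, 435, 233 and 349 CPM with FcD and at 194, 224, 266, 152 and 194 CPM with WT. The FcD values were mostly higher but overlapped, and the difference was 0.56 log2 (SE 0.39, unadjusted p = 0.167). It stayed between 0.47 and 0.64 log2 without WT replicate 4, WT replicate 5 or FcD replicate 4 and within each part. Ido1, which degrades tryptophan and is induced by interferon-γ, had an unadjusted p of 0.0396, but its level was 61.8 CPM in FcD replicate 4 and 6.13 to 15.1 CPM in the other 9 tumors.

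The 19 genes stimulated by type I interferon had a median of -0.10 log2 with 17 of 19 genes lower, and -0.14 with 19 of 19 lower without WT replicate 5. Within libraries 41 to 60 the median was -0.02 with 9 higher and 10 lower. Within libraries 61 to 80 it was -0.14 with 3 higher and 16 lower. Over all genes tested, 43.6% were higher with FcD in point estimate and the median was -0.02. None of the 19 had an unadjusted p under 0.05, and 18 had an interval within a 2-fold difference.

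Class II antigen presentation genes shared the pattern of macrophages. Their 13 genes had a median of -0.03 with all mice, 0.59 without WT replicate 5, 0.76 within libraries 41 to 60 and -0.42 within libraries 61 to 80. Their summed level was 3193 to 5964 CPM with FcD, and WT replicate 5 had the highest WT sum, 13763 CPM.

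Some inflammatory genes had an unadjusted p under 0.05. Il1b, the cytokine interleukin-1β, lay at 99.6, 82.6, 53.3, 76.6 and 83.6 CPM with FcD and at 45.7, 63.1, 46.2, 42.7 and 60.9 CPM with WT. Only FcD replicate 3 lay within the WT range, and the difference was 0.61 log2 (SE 0.28, 95% interval 0.05 to 1.17, unadjusted p = 0.0339). Mmp9, a gelatinase of neutrophils and macrophages, lay at 37.5, 28.8, 27.9, 24.5 and 27.6 CPM with FcD and at 22.0, 17.4, 25.2, 19.0 and 10.6 CPM with WT, a difference of 0.64 log2 (SE 0.24, unadjusted p = 0.0109). Neither passed the adjusted threshold (edgeR adjusted p = 0.999937). The 14 genes of the IL-1 family and inflammasome had a median of 0.08 log2, with 9 higher and 5 lower (43.6% of all genes higher). Il1b alone of them had an unadjusted p under 0.05, where 1.30% of all genes did. The 17 TNF and NF-κB feedback genes had a median of 0.05 and 0 such genes.

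The 13 neutrophil genes tested had a median of 0.47 log2. Of them 10 were higher (43.6% of all genes were) and 1 had an unadjusted p under 0.05 (1.30% of all genes did). The median was 0.49 without WT replicate 5, 0.25 without FcD replicate 4, 0.53 within libraries 41 to 60 and 0.61 within libraries 61 to 80. S100a8, a calcium-binding protein of neutrophils, lay at 24.1, 3.77, 6.65, 10.2 and 7.50 CPM with FcD and at 10.4, 5.65, 4.87, 2.85 and 4.17 CPM with WT. The groups overlapped, and the difference was 0.90 log2 (SE 0.79). The 8 neutrophil-attracting chemokines and growth factors had a median of 0.59, and 0 had an unadjusted p under 0.05.

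Across all 44 lists of cell types and pathways other than sex-linked transcripts, 584 genes were tested and 11 had an unadjusted p under 0.05 (1.88%, against 1.30% of all genes). All 11 were higher with FcD: Scd1, Ucp1, Cidea, Retn and Cfd among adipocyte genes, and Mmp9, Xcl1, Il1b, Ido1, Myl1 and C2 elsewhere. In point estimate 275 of the 584 (47.1%) were higher. Intervals lay within a 2-fold difference for 363 of the 584 genes (62.2%).

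Several other lists were bounded closely. All 21 cell cycle and DNA replication genes, 20 ribosomal proteins, 17 proteasome subunits, 20 respiratory chain genes, 18 glycolysis and hypoxia genes and 17 TNF and NF-κB feedback genes had intervals within a 2-fold difference, and the medians ran from -0.08 to 0.05 log2. Collagens had a median of 0.15 and myofibroblast genes of 0.17, with 0 genes at an unadjusted p under 0.05 in either. The collagen median was 0.04 without FcD replicate 4, 0.23 without WT replicate 5 and 0.45 and 0.18 within libraries 41 to 60 and 61 to 80. The myofibroblast median was 0.42 with 3 such genes without WT replicate 5, where 787 of all genes (5.33%) were at that p, 0.07 without FcD replicate 4, 0.72 within libraries 41 to 60 and 0.12 within libraries 61 to 80.

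The part of the series was also tested as a modifier of the FcD minus WT difference. No gene passed the adjusted threshold by edgeR, and 426 (2.89%) had an unadjusted p under 0.05, of which 317 (2.15%) were more negative and 109 (0.738%) more positive in libraries 61 to 80. This part holds WT replicate 5. Pdcd1 differed by 1.11 log2 in libraries 41 to 60 and by -2.01 log2 in libraries 61 to 80. Fitted on the 10 compared mice alone, 87 genes had an unadjusted p under 0.05.

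**Figure D3:**
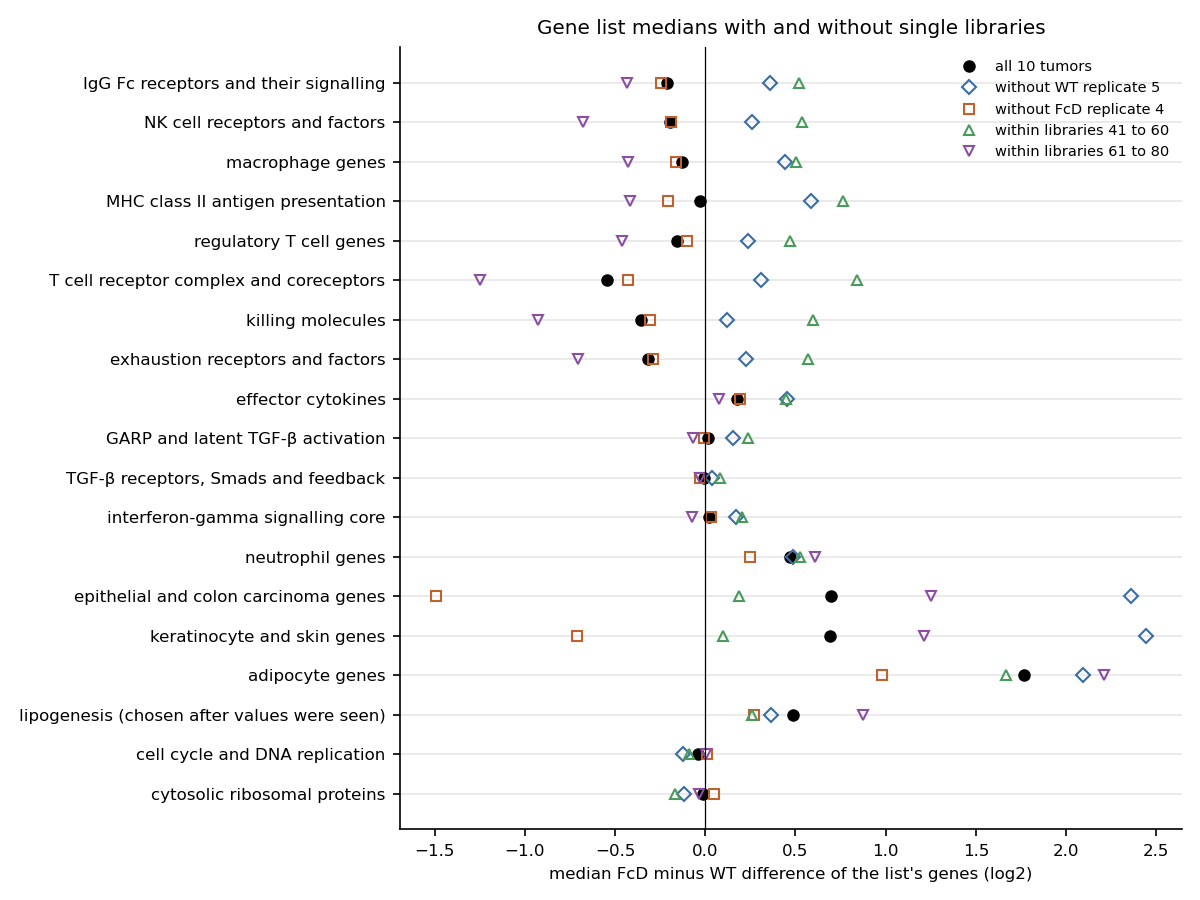
Median FcD minus WT difference (log2, both with anti-PD-1) of 19 gene lists over all 10 tumors (black), without WT replicate 5 (blue diamonds), without FcD replicate 4 (orange squares) and within libraries 41 to 60 or 61 to 80 (triangles). The first 8 lists, from Fc receptors to exhaustion receptors, change sign without WT replicate 5 and between the parts. Epithelial and skin lists change sign without FcD replicate 4. Effector cytokine, adipocyte, lipogenesis and neutrophil lists stay above 0 throughout.

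Several of the higher genes with the smallest p are genes of fat synthesis and fat cells, a description made after the values had been seen. Among the 10 higher genes with the smallest p and a mean of at least 1 CPM were Agpat2 and Dgat2, which add fatty acids to the glycerol backbone, Scd1, the stearoyl-CoA desaturase, Thrsp, a thyroid-hormone-responsive protein of lipogenic tissue, Pcx, encoding pyruvate carboxylase, and Ucp1, the uncoupling protein of brown fat. The other 4, Dmpk, Smoc1, Gatb and Aldh1a7, are not genes of fat synthesis. Fasn, the fatty acid synthase, followed with an unadjusted p of 0.00288. None passed the adjusted threshold (edgeR adjusted p = 0.999937).

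Promoters of the synthase and of Thrsp are shown because both genes were higher in the same tumors and both windows hold the pentamer CCAAT, the core of the site of the factor NF-Y. The sequences are RefSeq windows of 250 bases before to 50 bases after the start, on GRCm38.p6, written 5′ to 3′ on the minus strand of the genome. Fasn covers chr11:120824498-120824797 and Thrsp chr7:97417501-97417800. Capitals mark CCAAT and its complement ATTGG.
Fasn: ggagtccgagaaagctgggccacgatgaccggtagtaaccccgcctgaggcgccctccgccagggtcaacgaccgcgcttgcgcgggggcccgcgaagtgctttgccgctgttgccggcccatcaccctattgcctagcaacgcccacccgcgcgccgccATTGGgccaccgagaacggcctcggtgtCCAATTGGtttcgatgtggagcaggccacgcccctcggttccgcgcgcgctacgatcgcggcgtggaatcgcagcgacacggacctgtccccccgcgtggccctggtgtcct
Thrsp: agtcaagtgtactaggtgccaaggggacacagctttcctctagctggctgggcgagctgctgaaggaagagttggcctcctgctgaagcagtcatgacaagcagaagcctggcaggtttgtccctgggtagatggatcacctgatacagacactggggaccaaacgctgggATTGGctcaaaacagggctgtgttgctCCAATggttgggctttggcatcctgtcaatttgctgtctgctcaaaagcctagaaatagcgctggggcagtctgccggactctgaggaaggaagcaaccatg
Both strands were searched, with overlapping matches counted. Fasn had 3 matches, of which 2 overlap, and Thrsp had 2. Of 32851 promoters of this length, 12289 (37.4%) held at least 1 match. Of 18 lipogenesis genes, a list put together after the values had been seen, 15 had an entry in the promoter table, with 14 of their 21 promoters (66.7%) holding a match. A match describes the letters and does not mark a bound site.

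Scd1 stood at 1171, 589, 963, 2631 and 447 CPM in FcD replicates 1 to 5 and at 486, 481, 611, 531 and 396 CPM in WT replicates 1 to 5, with isotype control tumors at 456 to 661 CPM. FcD replicates 1, 3 and 4 lay above every WT and isotype tumor, and FcD replicates 2 and 5 lay among them. The difference was 1.21 log2 (SE 0.35, 95% interval 0.51 to 1.92, unadjusted p = 0.00153). It was 0.66 log2 without FcD replicate 4 (unadjusted p = 0.0439) and 0.91 and 1.59 log2 within libraries 41 to 60 and 61 to 80.

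Fasn lay at 364, 212, 378, 845 and 331 CPM with FcD and at 256, 193, 326, 355 and 165 CPM with WT. FcD replicate 4 lay far above the isotype control range of 254 to 372 CPM and FcD replicate 3 just above it, while FcD replicate 2 and WT replicates 2 and 5 lay below it. The difference was 0.72 log2 (SE 0.22), and 0.31 log2 without FcD replicate 4 (unadjusted p = 0.0956).

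Thrsp lay at 35.7, 2.71, 24.5, 109 and 3.72 CPM with FcD and at 1.53, 4.26, 2.91, 2.26 and 2.68 CPM with WT. The same FcD replicates 1, 3 and 4 were high, and the other 7 tumors lay between 1.53 and 4.26 CPM. The difference was 3.67 log2 (SE 0.99, unadjusted p = 0.00152), and 2.59 log2 without FcD replicate 4 (unadjusted p = 0.0182).

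Agpat2 had the smallest p of the higher genes. It lay at 38.9, 43.8, 43.5, 70.4 and 34.6 CPM with FcD and at 37.6, 36.0, 32.9, 30.8 and 24.0 CPM with WT, a difference of 0.52 log2 (SE 0.13, unadjusted p = 0.000403). Only FcD replicate 5 lay within the WT range, but the isotype control range, 31.1 to 42.9 CPM, held 2 of the FcD tumors. The difference was 0.32 log2 without FcD replicate 4 (unadjusted p = 0.00798). It was 0.19 log2 within libraries 41 to 60 and 0.84 log2 within libraries 61 to 80. Dmpk, a muscle kinase gene, was among the 9 genes higher without overlap, at 8.82 to 15.1 CPM with FcD and 5.91 to 8.12 CPM with WT.

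Dgat2 and Pcx repeated the course of Scd1. Dgat2 lay at 25.7, 5.96, 16.3, 73.4 and 6.97 CPM with FcD and at 4.89, 6.06, 8.10, 5.19 and 11.8 CPM with WT, a difference of 1.83 log2 (SE 0.55), or 0.92 log2 without FcD replicate 4 (unadjusted p = 0.0819). Pcx lay at 30.3, 10.7, 21.6, 93.3 and 16.1 CPM with FcD and at 16.2, 12.4, 17.0, 16.8 and 12.1 CPM with WT, a difference of 1.21 log2 (SE 0.35), or 0.40 log2 without FcD replicate 4 (unadjusted p = 0.146). Ucp1, at 1.87, 0.0754, 5.85, 4.11 and 0 CPM with FcD, was at 0 CPM in 3 WT tumors and at 0.360 and 0.0622 CPM in the remaining 2.

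**Figure D4:**
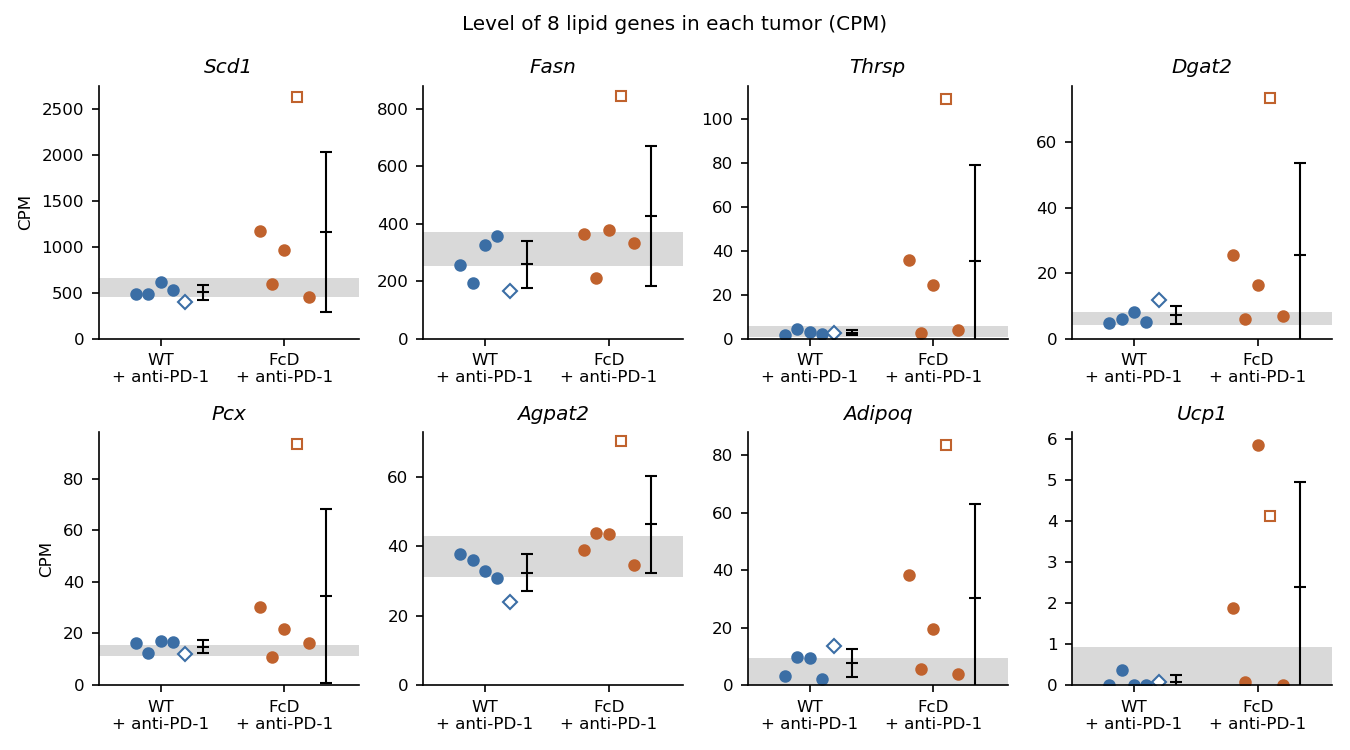
Level (CPM) of 8 lipid genes in each tumor of the WT + anti-PD-1 (blue) and FcD + anti-PD-1 (orange) groups, with WT replicate 5 as an open diamond, FcD replicate 4 as an open square, the mean ± SD of 5 mice as a bar cut at 0 and the range of the 5 isotype control tumors in grey. FcD replicate 4 is the highest tumor for every gene but Ucp1, FcD replicates 1 and 3 follow for Scd1, Thrsp, Dgat2, Pcx and Adipoq, and FcD replicates 2 and 5 lie among or below the WT tumors for these genes.

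Other genes of fat cells are given beside these. Adipoq, the adipocyte hormone adiponectin, lay at 38.2, 5.66, 19.5, 83.5 and 3.85 CPM with FcD and at 2.99, 9.71, 9.49, 1.97 and 13.7 CPM with WT, so that FcD replicates 1, 3 and 4 were again the highest 3 of 10. The difference was 1.99 log2 (SE 1.06, unadjusted p = 0.0765). Of 16 adipocyte genes, 15 were higher with FcD in point estimate and 5 had an unadjusted p under 0.05, among them Scd1 and Ucp1, with a median of 1.77 log2. Over all genes these shares were 43.6% and 1.30%. The summed adipocyte level was 716 to 4768 CPM with FcD, 680 to 1152 CPM with WT and 582 to 992 CPM in isotype controls, with the highest sum in FcD replicate 4. The list holds Scd1, which alone gave 2631 CPM of that sum, and Ucp1, so it is not separate from the genes above. The median was 0.98 without that tumor, 1.67 within libraries 41 to 60 and 2.21 within libraries 61 to 80. The share of the lipid gene differences that goes with fat tissue in the sample was not tested.

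FcD replicate 4 was also the tumor with the highest epithelial sum. The 12 epithelial and colon carcinoma genes had a median of 0.70 log2 with all mice, 2.36 without WT replicate 5, -1.49 without FcD replicate 4 and -0.16 without both. Epcam, an adhesion molecule of epithelia, was at 39.1 and 6.77 CPM in FcD replicates 4 and 5, at 21.8, 3.67 and 1.53 CPM in WT replicates 5, 3 and 4, and at or below 0.216 CPM in the other 5 tumors. The 5 tumors above 1 CPM were those of libraries 61 to 80. For all 120 genes higher at an unadjusted p under 0.05 an FcD tumor was the highest of the 10, which follows from how they were chosen, and it was FcD replicate 4 for 78 of them. Over all 14760 genes it was FcD replicate 4 for 1034 (7.01%), a share that the choice of higher genes raises for any FcD tumor.

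Lower genes with FcD were fewer. Of the 72 lower genes at an unadjusted p under 0.05, WT replicate 4 was the highest of the 10 tumors for 36 (50.0%) and WT replicate 5 for 14 (19.4%). Over all genes they were the highest of the 10 for 11.8% and 28.9%, shares that the choice of lower genes raises for any WT tumor. WT replicate 4 was the tumor with Rn7sk at 1030 CPM. Rps19-ps6, a pseudogene of a ribosomal protein whose reads may belong to near-identical copies, lay at 24.0 CPM in WT replicate 4 and at 2.28 to 3.95 CPM elsewhere. Its difference of -1.27 log2 became 0.02 log2 without that tumor. Asb2, a subunit of a ubiquitin ligase, lay at 24.8 CPM in WT replicate 5 and at 1.23 to 3.71 CPM elsewhere, and its difference of -1.46 log2 became 0.29 log2 without that tumor.

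Hp1bp3, a heterochromatin protein gene, lay at 171 to 185 CPM with FcD and at 187 to 199 CPM with WT, without overlap, a difference of -0.11 log2 (SE 0.04, unadjusted p = 0.0153). Ifit1bl1, of the interferon-induced Ifit family, lay at 1.43 to 2.92 CPM with FcD and at 1.46, 2.72, 9.23, 7.60 and 4.42 CPM with WT. Only WT replicates 3, 4 and 5 were above the FcD range, and the difference was -1.36 log2 (SE 0.43). These 3 are the WT mice of libraries 61 to 80. The difference was -0.21 log2 within libraries 41 to 60 and -1.68 log2 within libraries 61 to 80.

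Without anti-PD-1, the same formats were compared in 5 mice each. Again 0 genes passed the adjusted threshold by edgeR, with 207 at an unadjusted p under 0.05 (1.40%), and DESeq2, without that filter, also called 0 genes and had 313 before adjustment. Here 63 genes (0.427%) did not overlap, 30 higher (0.203%) and 33 lower (0.224%). The Fc receptor list had a median of -0.12 log2, the T cell receptor list of -0.63, the Treg list of -0.16 and the neutrophil list of -0.38.

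The lipid genes were also read in the absence of anti-PD-1. Thrsp differed by -1.60 log2 (SE 1.17), Scd1 by -0.05 log2 (SE 0.35), Agpat2 by -0.16 log2 (SE 0.13) and Fasn by 0.29 log2 (SE 0.22). The median of the adipocyte list was -1.13 log2, against 1.77 with anti-PD-1, and that of the 18 lipogenesis genes was -0.07 log2, against 0.48 with anti-PD-1, where all 18 were higher in point estimate. With anti-PD-1 the lipogenesis median was 0.27 with 17 of 18 higher without FcD replicate 4, and 0.17 without FcD replicate 4 and WT replicate 5. The test of whether the FcD minus WT difference depended on anti-PD-1 called 0 of 14760 genes by edgeR, with 264 (1.79%) at an unadjusted p under 0.05, and 0 by DESeq2, with 445 over its unfiltered genes. Of the 264, 165 (1.12%) had a more positive FcD minus WT difference with anti-PD-1 than without it and 99 (0.671%) a more negative one. Its smallest adjusted p was 0.999875. The lipid genes were picked for their values with anti-PD-1, so a smaller difference without it follows in part from that choice, and these values are a description.

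**Figure D5:**
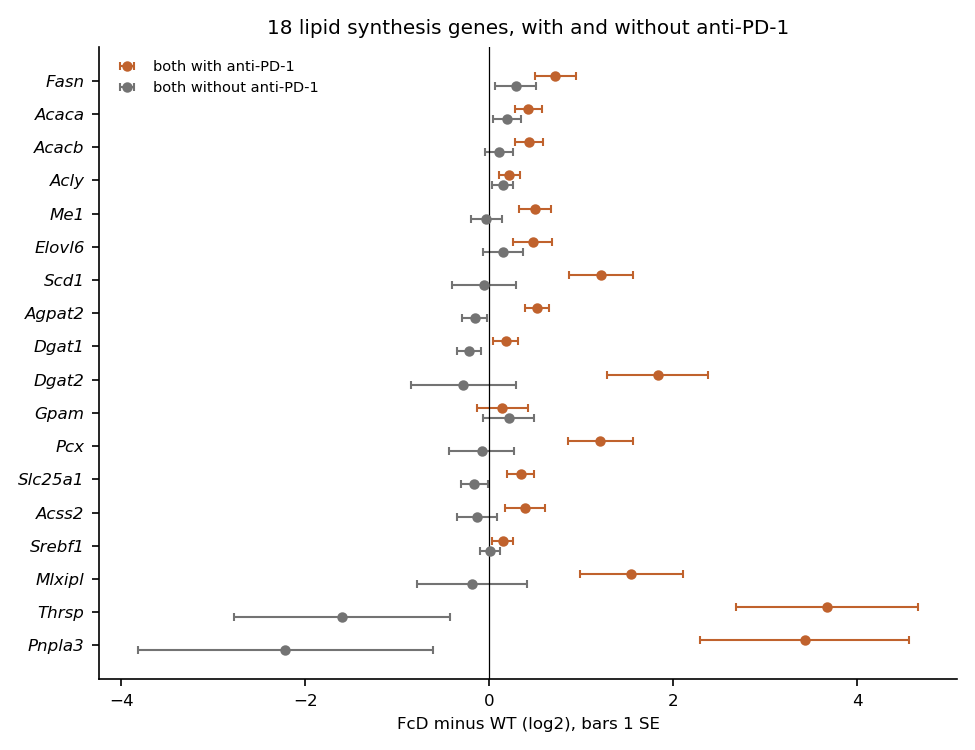
FcD minus WT difference (log2, bars 1 SE) of 18 lipid synthesis genes in tumors treated with anti-PD-1 (orange) and without it (grey), from 5 mice in each of 4 groups. All 18 orange points lie above 0, the grey points lie on both sides of it, and the bars are widest for Thrsp and Pnpla3.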

How the data were processed

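Tumor fragments of 40 mice were profiled by bulk RNA-seq. The authors aligned reads to GRCm38 with STAR 2.5.3a, handled them with SAMtools 1.6 and counted them per gene with HTSeq 0.9.1, as the submitters' processing notes list, and deposited raw counts per gene, without normalization. The annotation and strand setting are not given in the sources used here, so overlapping and near-identical genes are uncertain, and 27 gene names had been turned into dates. Groups were taken from the sample tags.

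Genes were filtered with filterByExpr, scaled by TMM and fitted in edgeR 4.0.16 (robust quasi-likelihood, R 4.3.3, limma 3.58.1) over all 40 mice with 1 term per group, which share 1 estimate of the spread. Intervals are 95% intervals of the contrast, log2 CPM used a prior count of 2, and 3 genes without a standard error have no interval. DESeq2 1.42.0, its size factors, no filter, the part of the series as a covariate, only the compared mice and leaving out each mouse were alternatives. The scripts were tested on simulated counts. Leaving out both WT replicate 5 and FcD replicate 4, the 12 ratios and 3 gene lists were added after the data had been seen. These lists hold lipogenesis, brown fat and milk protein genes, and all 3 are among the 48 list medians. The members and all gene lists were chosen with earlier results of these data known. Genes named in the text are 31 fixed genes, the 10 higher and 10 lower genes with the smallest p at a mean of at least 1 CPM and the extremes of each list, of which 1 fixed gene is not reported here. Fasn, Krt8, Epcam, Adipoq, Rn7sk, Hp1bp3 and the genes of the lists at an unadjusted p under 0.05 were named after their values had been seen. Gene promoters came from RefSeq.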

Additional observations from a re-analysis of the deposited data

Results flagged for a closer look

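In 51 named genes, 102 groups of 5 tumors were examined for a single tumor set apart, by the gap to its neighbor as a share of the group's range on the log2 scale with 0.1 CPM added, and 11 groups (10.8%) passed the critical value of 0.71. The genes include the 10 higher and 10 lower genes picked for the smallest p in these same tumors, and several flags fall on the same tumor. The 102 groups are therefore neither unselected nor independent, and the share was not set against a chance rate. With FcD + anti-PD-1, replicate 2 was the lowest tumor for Fcgr1 (gap 0.733 of the range), Fcgr4 (0.814), Adgre1 (0.735) and Ikzf2 (0.784), the gene of the Treg factor Helios. With WT + anti-PD-1, replicate 5 was the highest for Fcgr2b (0.716), Klrb1c, which encodes the NK receptor NK1.1 (0.758), and Asb2 (0.737). WT replicate 4 was the highest for the noncoding gene RP23-419G21.1 (0.775) and the pseudogene Rps19-ps6 (0.77). FcD replicate 4 was the lowest for RP23-245M20.4 (0.86) and FcD replicate 3 for Gm10036 (0.723).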

How the results depend on the processing

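No gene passed the adjusted threshold between the FcD and WT combinations, between the formats without anti-PD-1 or in the test of dependence on anti-PD-1 under any alternative run (0 in each, leaving out each mouse included: 0 to 0). Among the 14760 genes, unadjusted counts for the combinations ran from 159 (1.08%) without FcD replicate 4 to 787 (5.33%) without WT replicate 5. With both of these libraries left out there were 363 (2.46%). Without the filter on low counts there were 783 over the larger unfiltered set, of which 168 (1.14%) were among the 14760. For the dependence on the part of the series, leaving out each mouse gave 0 to 2 genes, and the 2, without FcD replicate 5, were Slc12a2 (1.64 log2) and Stc2 (2.21 log2, edgeR adjusted p = 0.0477 for both). That leaves FcD replicate 4 as the lone FcD mouse of libraries 61 to 80, assumed to vary like the other groups. Genes with an interval within a 2-fold difference numbered 11603 to 12203 under the other alternatives and 11719 to 12039 when each mouse was left out. Of 136 genes named or extreme in a list, the sign was that of the full comparison for all 136 under the 5 alternatives that kept every compared mouse, and turned for 42 without WT replicate 5, 48 without both libraries, 47 within libraries 41 to 60 and 13 within libraries 61 to 80. No paired analysis was possible because the labels carry no replicate numbers shared between groups, and the replicate numbers used here only name the mice. With 5 mice per group and low counts, differences of less than about 2-fold were not detectable for Foxp3 (SE 0.45 log2). For Ccr8 (SE 0.71 log2) even larger differences could be missed.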
